A study of Homo sapiens with 12 samples.

Results

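The insulin-like growth factor (IGF) axis was described in C4-2 cells, an LNCaP-derived line of human prostate cancer, through 10 genes: the ligand IGF1, the receptors IGF1R, IGF2R and INSR, the adaptors IRS1 and IRS2, and the binding proteins IGFBP2, IGFBP3, IGFBP4 and IGFBP5. The genes were listed by name and matched by Ensembl identifier, and all 10 were found among 54127 identifiers in the count files. The set was chosen by the steep fall of IGF1 in these samples, so the IGF1 contrast is given as a description without a test. The cells grew in RPMI with 10% FBS and were reverse transfected with 50 nM of an siRNA pool against CHKA (siCHKA), the choline kinase that opens phosphatidylcholine synthesis, or of nontargeting siRNA (siNT). RNA was sequenced in 6 siCHKA and 6 siNT samples. All 12 samples share the line, the transfection and the serum, which itself carries growth factors. A single line and a single pool were used, and the labels do not say whether the numbered samples of a group were separate transfections, and the study's own text gives differing numbers of biological replicates. Every SD and test here takes the 6 labelled samples of a group as separate, so p-values measure the spread between these samples, which may be technical.

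IGF1 is a secreted growth factor that binds IGF1R, a receptor tyrosine kinase. The active receptor phosphorylates docking proteins such as IRS1 and IRS2, which start the PI3K-AKT-mTOR and RAS-ERK branches. AKT in turn keeps FOXO transcription factors out of the nucleus. INSR, the insulin receptor, can pair with IGF1R, whereas IGF2R carries no kinase and takes IGF2 to lysosomes. Binding proteins hold the ligands outside the cell, and IGF signaling is a known growth input of prostate cancer cells.

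The promoters of the ligand and of its receptors differed in their sequence. The windows shown are the 250 bases before an annotated start (RefSeq, GRCh38.p14). Whether their sequence goes with the direction of change was not tested. IGF1 lies on the minus strand of chromosome 12 at 102395874-102481744 (GRCh38) and has 2 such windows. IGF1R lies on the plus strand of chromosome 15 at 98648539-98964530, and INSR on the minus strand of chromosome 19 at 7112255-7294414. Capitals mark matches on either strand to the GC box GGGCGG or the FOXO motif GTAAACA.
IGF1 window 1, chr12:102481748-102481997, minus strand: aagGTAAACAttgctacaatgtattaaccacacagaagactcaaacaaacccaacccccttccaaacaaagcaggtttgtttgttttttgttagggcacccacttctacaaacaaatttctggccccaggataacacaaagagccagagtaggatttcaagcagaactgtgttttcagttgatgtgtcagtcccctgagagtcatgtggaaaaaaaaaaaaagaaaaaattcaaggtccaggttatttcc
IGF1 window 2, chr12:102478551-102478800, minus strand: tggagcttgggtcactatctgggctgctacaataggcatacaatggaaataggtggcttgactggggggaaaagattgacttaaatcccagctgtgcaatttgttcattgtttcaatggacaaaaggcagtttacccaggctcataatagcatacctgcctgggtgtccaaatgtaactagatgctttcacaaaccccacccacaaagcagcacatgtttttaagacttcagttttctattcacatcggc
IGF1R, chr15:98648289-98648538, plus strand: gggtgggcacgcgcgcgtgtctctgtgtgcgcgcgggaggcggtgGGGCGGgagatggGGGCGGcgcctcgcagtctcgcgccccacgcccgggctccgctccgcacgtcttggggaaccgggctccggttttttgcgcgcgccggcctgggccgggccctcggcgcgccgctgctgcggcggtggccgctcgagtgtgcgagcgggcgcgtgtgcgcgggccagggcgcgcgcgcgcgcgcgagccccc
INSR, chr19:7294415-7294664, minus strand: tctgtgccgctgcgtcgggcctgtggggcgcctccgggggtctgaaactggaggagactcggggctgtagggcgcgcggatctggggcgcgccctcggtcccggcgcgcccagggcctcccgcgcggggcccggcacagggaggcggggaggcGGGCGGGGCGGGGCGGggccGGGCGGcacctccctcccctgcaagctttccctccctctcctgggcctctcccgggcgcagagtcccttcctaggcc
GC content was 39.6% and 44% in the IGF1 windows, the 12.7th and 20.8th percentile of 35116 windows. It was 81.2% for IGF1R and 78.4% for INSR, the 98.0th and 95.4th percentile. The IGF1 windows held no GC box, against 2 for IGF1R and 4 for INSR, and 42.6% of all windows held at least 1. The first IGF1 window held 1 copy of GTAAACA, which was found in 2.98% of windows. The TATA box TATAAA was in none of these 4 windows, searched on both strands, and in 10.7% of all windows. The same held for the CCAAT box (32.0% of all windows) and for the androgen receptor half-site AGAACA (12.4% of all windows). The half-site was found in windows 1 and 3 of IGFBP2, with 1 match each. The other receptor and the adaptors had GC-rich windows as well, with 79.2% and 6 GC boxes for IGF2R, 80.8% and 4 for IRS1, and 76.4% and 5 for IRS2. Among the binding proteins GC content ranged from 56.4% in 1 of the 3 windows of IGFBP2 to 76% for IGFBP3. IGFBP3, which was lower after siCHKA like IGF1, held 2 GC boxes. IGFBP2, also lower, held 1 in window 1, 1 in window 2 and 0 in window 3. These are matches of letters and were not measured as bound sites.

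Of the 10 genes, 8 passed the expression filter of edgeR. At an adjusted p below 0.05 (edgeR's quasi-likelihood test, Benjamini-Hochberg over all tested genes), 3 were lower after siCHKA, 3 were higher and 2 were neither. Over all 14501 tested genes, 62.2% were called, 30.1% lower and 32.1% higher, so these shares are near the background. IGF1, which chose the set, is 1 of the lower genes, so its place in this count is no test of it. Without it, 2 of 7 were lower and 3 higher. The lowest siNT sample was above the highest siCHKA sample for all 3 lower genes, IGF1 among them, which held for 21.5% of tested genes. The 3 higher genes had overlapping groups, whereas 19.1% of tested genes were higher without overlap. The median log2 fold change over all tested genes was 0.035, with quartiles of -0.274 and 0.344.

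IGF1 transcript was at a small remainder of its siNT level in every siCHKA sample. In siNT replicates 1 to 6 it was at 39.2, 34.3, 33.2, 37.7, 39.4 and 34.6 CPM (reads of the gene scaled to the TMM-normalized total of reads on genes). After siCHKA it was at 2.53, 2.82, 2.99, 2.63, 2.74 and 2.90 CPM. Every siCHKA sample was thus far below every siNT sample, and both groups were tight. The means were 2.77 ± 0.17 CPM after siCHKA and 36.4 ± 2.69 CPM after siNT (SD, n = 6), which leaves 7.61% of the siNT level. These values rest on 34 to 62 reads per siCHKA sample and 355 to 802 reads per siNT sample. The fitted log2 fold change was -3.71 (SE 0.08), a 13.1-fold difference. Each sample came as 4 count files, and in the single files before normalization IGF1 ranged from 1.13 to 4.58 CPM after siCHKA and from 27.9 to 41.4 CPM after siNT, so that no file stood between the groups. Of the 14501 tested genes, only 5 including IGF1 fell at least as much. The siRNA target CHKA was left at 6.76% of its siNT level. A bulk measurement cannot tell fewer cells making a transcript from less of it per cell.

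The annotation around IGF1 limits what its reads stand for. A long noncoding RNA on the opposite strand, HELLPAR, shares 6693 bases or 82.5% of the IGF1 exons, and it is no feature of the count files. Whether counting used strand is not given in the sources used here, so reads of IGF1 and of this transcript cannot be told apart.

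The other IGF ligand moved the opposite way. IGF2, which acts through IGF1R and the short form of INSR, is outside the 10 genes and comes from the list of pathway ligands. It was at 1.11, 1.24, 1.06, 1.24, 0.647 and 1.27 CPM in siNT replicates 1 to 6. In siCHKA replicates 1 to 6 it was at 5.06, 5.32, 6.12, 5.31, 5.49 and 6.58 CPM. All siCHKA samples were above all siNT samples. The means were 5.65 ± 0.58 and 1.09 ± 0.23 CPM (SD, n = 6), and the log2 fold change was 2.37 (SE 0.14, adjusted p = 2.8e-10, edgeR). An exact two-sided permutation test of log2 CPM gave p = 0.00216, the smallest that 6 samples against 6 allow. Among all tested genes, 31 including IGF2 rose at least as much. IGF2 shares 37.9% of its exons with an unnamed coding gene and 20.4% with the INS-IGF2 readthrough gene on the same strand, and 4.66% with the antisense gene IGF2-AS. The readthrough and antisense genes had 0 reads in the files. Reads on exons that counted genes share can fall under ambiguous and were left out, so these counts do not show the genes to be silent. The unnamed gene is no feature there. The part of these genes in the IGF2 counts was not tested. INS, the insulin gene, was at 0 in all 12 samples.

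**Figure D1:**
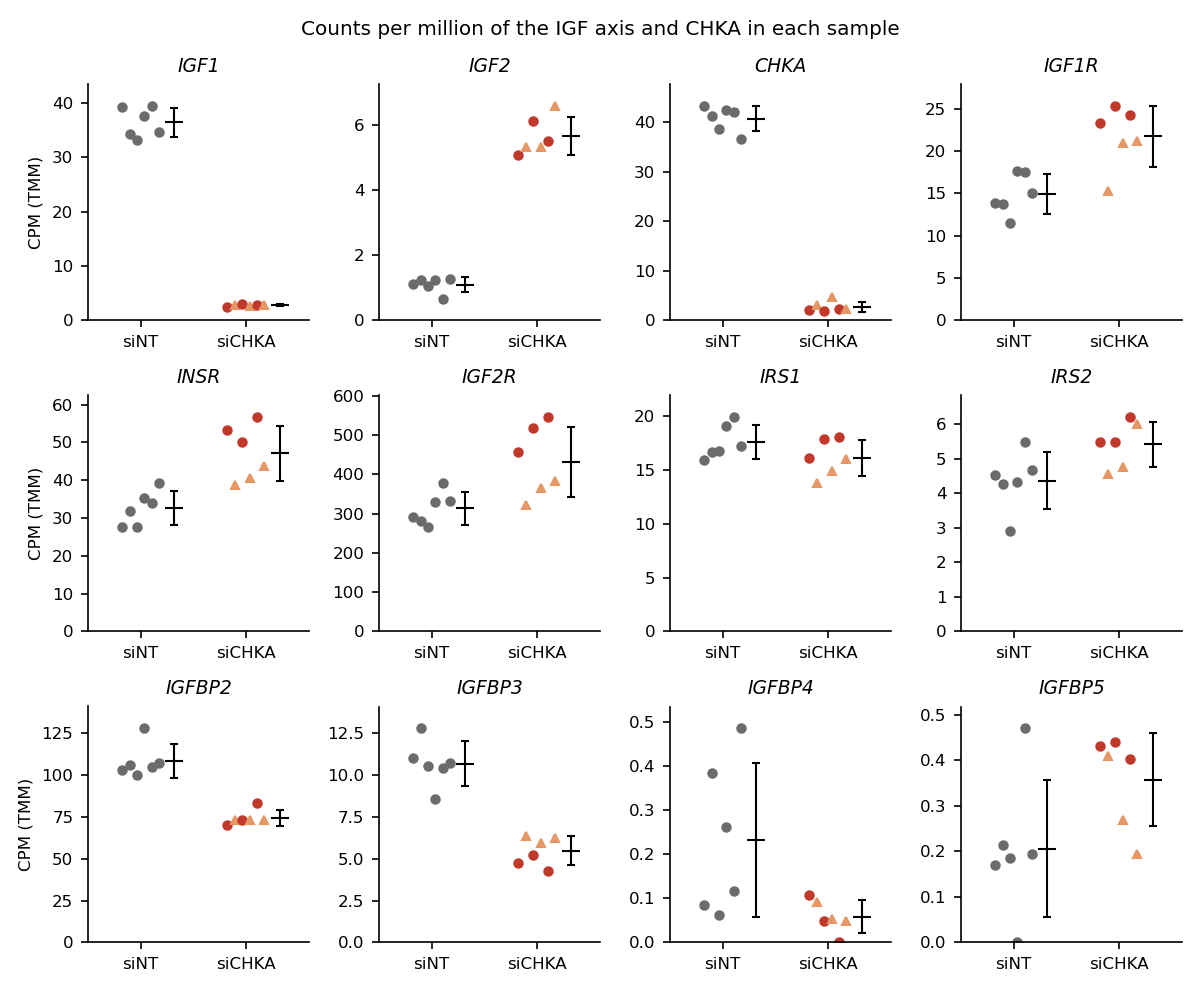
TMM-normalized CPM (linear axes from 0) of 12 genes in 6 siNT samples (grey circles) and 6 siCHKA samples (red circles for replicates 1, 3 and 5, orange triangles for replicates 2, 4 and 6), with mean and SD as bars. IGF1 sits between 2.53 and 2.99 CPM after siCHKA and between 33.2 and 39.4 CPM after siNT, IGF2 is higher in every siCHKA sample, and the receptors overlap between groups.

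Transcripts of all 3 receptors were higher after siCHKA, by 1.46-fold for IGF1R, 1.44-fold for INSR and 1.38-fold for IGF2R in mean CPM, with overlapping groups. IGF1R, the receptor of both IGFs, was at 13.9, 13.7, 11.6, 17.7, 17.5 and 14.99 CPM in siNT replicates 1 to 6 and at 23.4, 15.3, 25.3, 20.9, 24.3 and 21.1 CPM in siCHKA replicates 1 to 6. Only siCHKA replicate 2 fell within the siNT range. The log2 fold change was 0.54 (SE 0.12, adjusted p = 0.000909, edgeR). INSR, which binds insulin and in its short form IGF2, was at 27.7, 31.9, 27.7, 35.2, 34.0 and 39.2 CPM after siNT and at 53.2, 38.7, 50.0, 40.6, 56.7 and 43.8 CPM after siCHKA. Here too only replicate 2 of siCHKA lay below the highest siNT sample. The difference was 0.53 on the log2 scale (SE 0.10, adjusted p = 0.000242, edgeR). IGF2R, the clearance receptor of IGF2, was far more abundant, at 291, 281, 266, 329, 379 and 332 CPM after siNT and 458, 322, 517, 365, 546 and 384 CPM after siCHKA. Its siCHKA replicates 2 and 4 lay within the siNT range. The log2 fold change was 0.46 (SE 0.12, adjusted p = 0.00275, edgeR), and it was 0.18 and not called with siCHKA replicates 1, 3 and 5 left out (adjusted p = 0.108, edgeR). INSRR, the insulin receptor-related receptor, was at 0 throughout.

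Neither docking protein passed the test. IRS1 was at 15.9, 16.7, 16.8, 19.1, 19.9 and 17.2 CPM in siNT replicates 1 to 6 and at 16.1, 13.8, 17.9, 14.9, 18.0 and 16.0 CPM in siCHKA replicates 1 to 6. The groups overlapped, and the log2 difference of -0.13 had a 95% interval from -0.30 to 0.03 (adjusted p = 0.156, edgeR). IRS2 was at 4.52, 4.28, 2.92, 4.31, 5.47 and 4.67 CPM after siNT and at 5.49, 4.55, 5.49, 4.77, 6.21 and 6.00 CPM after siCHKA. Its log2 difference was 0.31, with an interval from 0.03 to 0.59 and an adjusted p of 0.0506 (edgeR), just beyond the threshold. Several other settings put IRS2 below it, as given among the processing alternatives.

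Both binding proteins with enough reads were lower after siCHKA. IGFBP2, a binding protein secreted by many epithelial cancers, was at 103, 106, 99.98, 128, 105 and 107 CPM in siNT replicates 1 to 6 and at 70.4, 73.0, 73.2, 73.4, 83.6 and 72.9 CPM in siCHKA replicates 1 to 6. No siCHKA sample reached the siNT range, and the log2 fold change was -0.54 (SE 0.06, adjusted p = 7.66e-07, edgeR). IGFBP3, the main carrier of IGFs in serum, was at 11.01, 12.8, 10.5, 8.56, 10.4 and 10.7 CPM after siNT and at 4.73, 6.37, 5.24, 5.95, 4.28 and 6.24 CPM after siCHKA. The groups were again apart, with a log2 fold change of -0.95 (SE 0.11, adjusted p = 1.23e-06, edgeR). IGFBP4 and IGFBP5 did not pass the filter. IGFBP4 ranged from 0 to 0.108 CPM after siCHKA and from 0.0621 to 0.487 CPM after siNT, and IGFBP5 from 0.193 to 0.441 and from 0 to 0.471 CPM. The limit that a count of 0 allows, 3 counts, was 0.128 to 0.292 CPM over the samples, so most of these values are near it and no fold change is given. In a fit without the filter, IGFBP4 was called lower (adjusted p = 0.0143, edgeR) and IGFBP5 was not called (adjusted p = 0.276). IGFBP1 and IGFBP7 were at 0 in all 12 samples.

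Levels of different genes were compared as CPM per kilobase of exon. In siNT cells the order was IGFBP2 at 22.9, IGF2R at 13.8, IGF1 at 4.49, INSR at 3.01, IGFBP3 at 2.33, IRS1 at 1.76, IGF1R at 1.07, IRS2 at 0.535, IGFBP4 at 0.106 and IGFBP5 at 0.0319 CPM per kilobase. The sample ranges of INSR and IGFBP3, of IGFBP3 and IRS1, and of IGFBP4 and IGFBP5 overlapped, and those of the other neighbours did not. IGF1 thus had rank 3 in siNT cells. After siCHKA it had rank 8, at 0.341 CPM per kilobase, and IGF2R led at 19.1 ahead of IGFBP2 at 15.7, with overlapping ranges. IGF2 was at 0.153 CPM per kilobase after siNT and at 0.790 after siCHKA. The exon length of IGF2 includes stretches shared with other genes, where reads may be left uncounted. The more abundant of the IGF ligands per exon length was therefore IGF1 in every siNT sample and IGF2 in every siCHKA sample, as a description that includes the fall that chose IGF1.

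**Figure D2:**
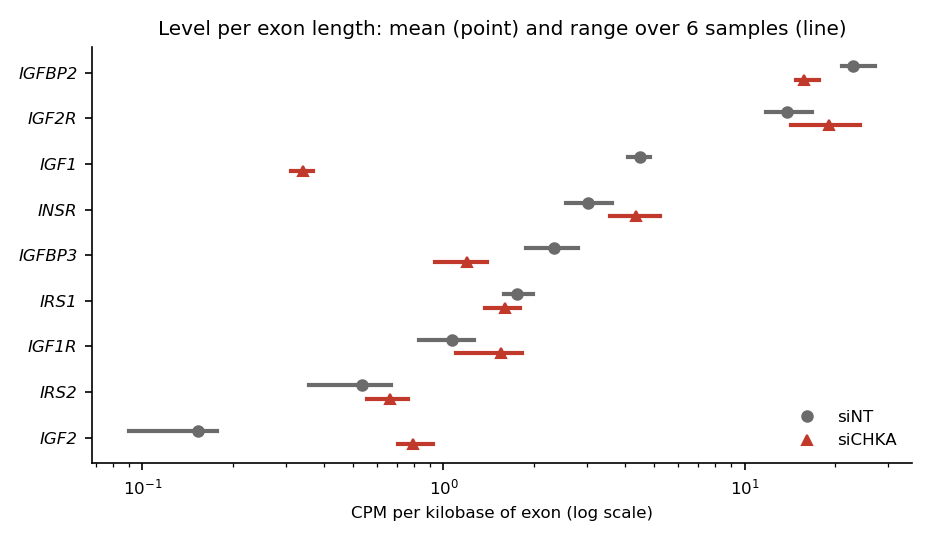
CPM per kilobase of exon (log axis) of 9 genes, with the mean of 6 samples as a point and their range as a line, siNT in grey and siCHKA in red. IGF1 moves from 4.49 to 0.341 CPM per kilobase and IGF2 from 0.153 to 0.790, while the means of the other genes move less.

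The siCHKA samples were not uniform. By their counts over all genes, replicates 1, 3 and 5 and replicates 2, 4 and 6 stood apart (chi-square per degree of freedom 12.5 to 24.9 across these sets and 2.39 to 9.50 within them), and siNT pairs differed by 2.51 to 30.9. The labels give no batch for this. IGF1R, IGF2R, INSR and IRS1 were higher in replicates 1, 3 and 5 than in replicates 2, 4 and 6 without overlap, whereas IGFBP3 was lower in them. The values of IGF1, IGF2, IRS2, IGFBP2 and CHKA overlapped between the sets. The sets were made from these counts and are not tested, and 47.5% of all tested genes showed no overlap between them. IGF1 was at 2.53 to 2.99 CPM in the first set and at 2.63 to 2.90 CPM in the second. With replicates 1, 3 and 5 left out, the log2 fold change against siNT was 0.35 for IGF1R and 0.33 for INSR, both still called, whereas IGF2R lost its call as given above. With replicates 2, 4 and 6 left out, the 3 receptors were at 0.71, 0.71 and 0.70. IGFBP3 was at -0.80 and -1.16 in these fits and remained lower.

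**Figure D3:**
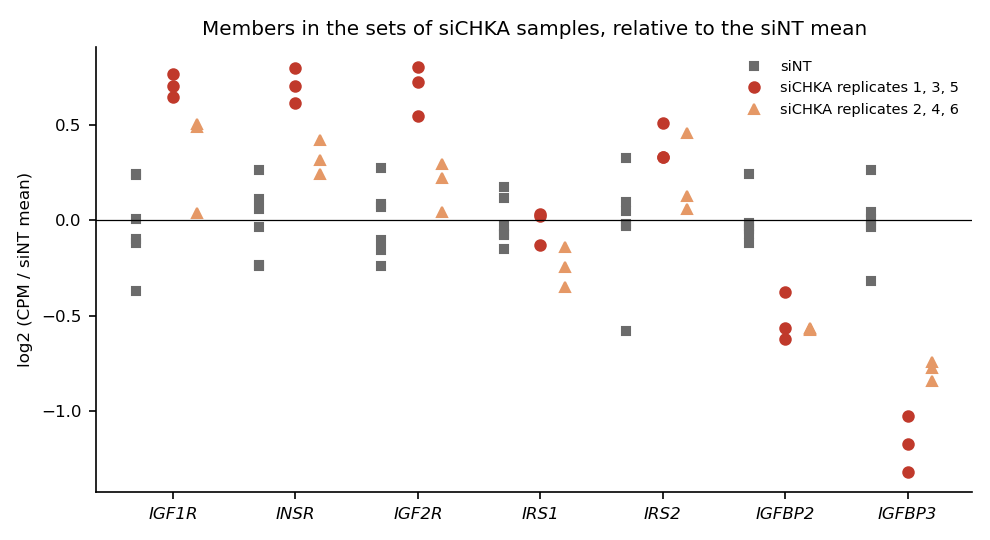
Log2 ratio of each sample's CPM to the siNT mean for 7 genes, with siNT samples as grey squares, siCHKA replicates 1, 3 and 5 as red circles and siCHKA replicates 2, 4 and 6 as orange triangles. The red circles lie above the orange triangles for IGF1R, INSR, IGF2R and IRS1 and below them for IGFBP3.

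Other genes of the pathway were taken from lists by role, and their counts are set beside the 30.1% lower and 32.1% higher over all tested genes. Of 13 tested adaptors and receptor regulators, 3 were lower and 4 higher, with a median log2 fold change of 0.03. PTPN11, the phosphatase SHP2 that aids RAS activation, was at 141 ± 22.5 CPM after siCHKA and 281 ± 32.7 CPM after siNT (SD, n = 6), and its log2 fold change was -0.997 (SE 0.10). SHC1, the adaptor that leads to GRB2 and SOS, was at -0.56 and PTPN1, which dephosphorylates INSR, at -0.29. The higher genes included SH2B2, an adaptor of INSR, at 0.70, and the inhibitory adaptors GRB14 and GRB10 at 0.44 and 0.40. The inhibitory GRB10 was an abundant transcript, at 290 ± 5.45 CPM after siCHKA and 220 ± 13.7 CPM after siNT, without overlap.

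STC1 and STC2, which inhibit the proteases that cleave IGF binding proteins, were lower among 3 tested genes of that list. STC2 was at 132 ± 29.6 CPM after siCHKA and 201 ± 28.8 CPM after siNT (SD, n = 6; log2 fold change -0.61, adjusted p = 0.000541, edgeR), and STC1 was at -0.40 (adjusted p = 0.0368, edgeR). The groups overlapped for STC1, at 5.68 to 10.2 CPM after siCHKA and 7.19 to 12.8 CPM after siNT. The proteases PAPPA and PAPPA2 did not pass the filter. Both tested IGF2 mRNA-binding proteins, which bind IGF2 and other transcripts, were lower. IGF2BP3 was at 21.4 ± 1.03 CPM after siCHKA and 34.3 ± 1.32 CPM after siNT (log2 fold change -0.68, adjusted p = 6.15e-09, edgeR). IGF2BP2 was below 1 CPM in both group means, and its groups overlapped, at 0.319 to 0.536 CPM after siCHKA and 0.427 to 1.17 CPM after siNT.

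The branches below the receptors held genes of both directions. Of 35 tested genes of the PI3K-AKT-mTOR branch, 10 were lower and 10 higher, and their median was 0.04, against 0.035 over all tested genes. INPP4B, a lipid phosphatase that opposes AKT, was at -1.34, EIF4EBP1, the translation repressor that mTOR inactivates, at -1.10, and PIK3R2, a regulatory subunit of PI3K, at -0.60. Higher genes were DEPTOR, an inhibitor bound to mTOR, at 1.43, PIK3CD, a catalytic subunit of PI3K, at 0.56, and MLST8, a shared mTOR subunit, at 0.50. Among 14 RAS-ERK genes, 5 were lower and 3 higher, with a median of -0.07. RPS6KA3, an RSK kinase activated by ERK, was at -1.27, and the kinase gene MAPK3 was at -0.51. MAP2K2, RPS6KA2 and NRAS were at 0.46, 0.42 and 0.32.

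In the list of genes that FOXO factors are known to induce, more were higher than lower. Of 16 tested, 9 were higher and 3 lower, beside 32.1% higher and 30.1% lower over all tested genes. Their median log2 fold change was 0.33, against 0.035 over all tested genes. The list was written with earlier results of these samples known, and INSR and IRS2 are in it as well. FBXO32, a muscle ubiquitin ligase, was at 6.88 ± 0.85 CPM after siCHKA and 1.95 ± 0.33 CPM after siNT (SD, n = 6; log2 fold change 1.82, SE 0.13, adjusted p = 1.64e-09, edgeR). SESN3, a sestrin that restrains mTOR, rose from 300 ± 53.0 to 950 ± 132 CPM (1.67, SE 0.11, adjusted p = 1.21e-09, edgeR), and CCNG2, an unconventional cyclin, from 97.5 ± 24.8 to 200 ± 15.01 CPM (1.04, SE 0.12, adjusted p = 1.42e-06, edgeR). Each of these had groups that did not overlap, as did 19.1% of tested genes in the higher direction. ERBB3, a receptor of the EGFR family, BCL6, a transcriptional repressor, and TNFSF10, the death ligand TRAIL, were lower at -0.49, -0.45 and -0.40. The cell cycle inhibitor CDKN1B was at -0.08 and the BH3 protein BCL2L11 at 0.03, and neither was called. FOXO activity itself was not measured.

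**Figure D4:**
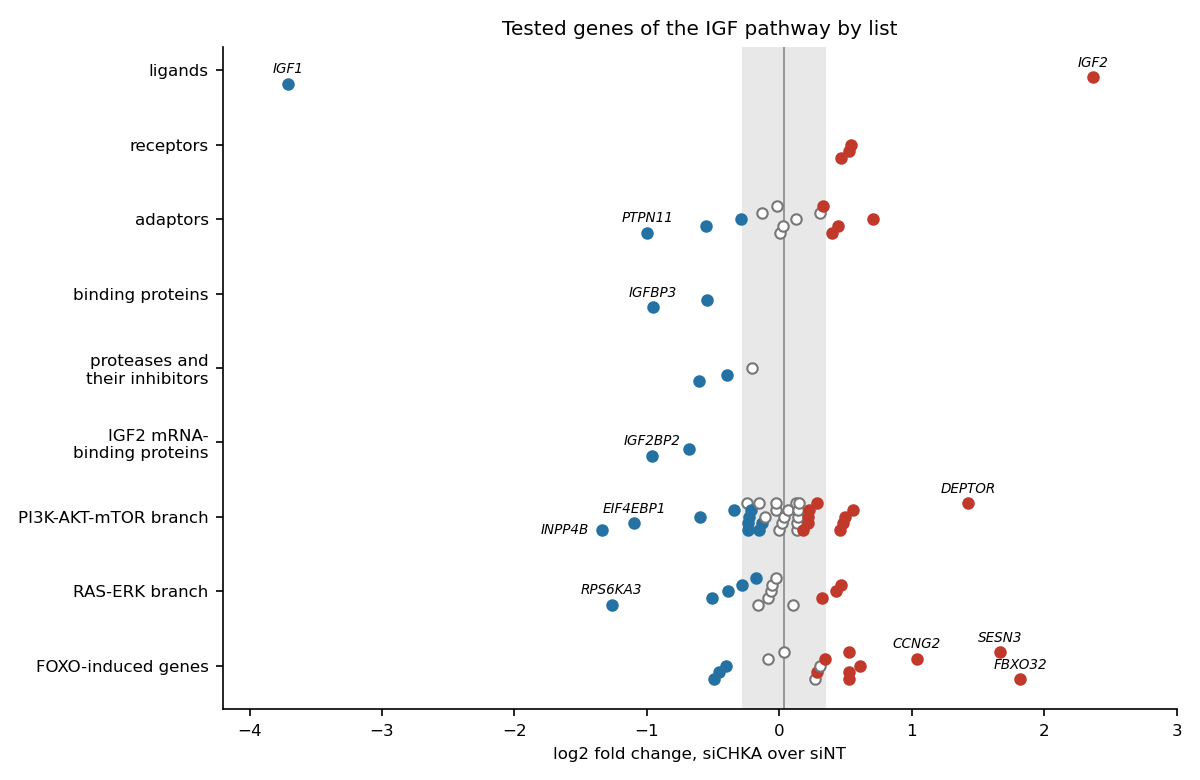
Log2 fold change of siCHKA over siNT for each tested gene of 9 lists. Blue marks genes called lower, red genes called higher and open circles neither. IGF1 is blue as well, but its fall chose the set, so its colour is no test. The grey band and line are the quartiles and median of all tested genes, from -0.274 to 0.344 around 0.035. Red marks 9 of 16 FOXO-induced genes, beside 32.1% of all tested genes called higher.

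The genes whose pattern over the 12 samples was most like that of IGF1 were IDH2, CHKA, MYB, SEC23A and LIX1. Likeness was the root mean square difference in log2 CPM relative to each gene's siNT mean, over 13105 genes with at least 1 CPM in siNT, and it was 0.260, 0.363, 0.675, 0.677 and 0.681. IDH2, a mitochondrial isocitrate dehydrogenase, was at 17.9 ± 0.98 CPM after siCHKA and 290 ± 14.2 CPM after siNT (SD, n = 6). LIX1 entered through its siNT level of 1.46 CPM and was at 0.107 CPM after siCHKA, below the limit that a count of 0 allows, so its likeness rests on counts near 0. This measure finds genes with a fall of like size and is a description.

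In an earlier analysis of the same counts the 7-base words GCCAGAT and TGCCCTT in 3′ UTRs went with a fall across genes. IGF1, IRS1, IGFBP2 and IGFBP3 held neither word in the 3′ UTR of their longest coding transcript. IGF1R, IGF2R, INSR, IRS2, IGFBP4, IGFBP5 and IGF2 held at least 1, as did the siRNA target CHKA. Of the 12282 tested genes with a 3′ UTR examined, 25.04% held a word. Their median log2 fold change was -0.11, against 0.03 for genes without, and their UTRs were longer, with medians of 2986 and 1100 bases. The link of the words with a fall was first seen in these same counts, so this difference is no separate evidence for it.

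Reads counted on genes ranged from 12158361 to 20670479 per siCHKA sample and from 10685184 to 24246055 per siNT sample. All 12 luminal prostate markers, such as KLK2 and KLK3, were at a mean of at least 1 CPM, with a summed level of 5543 to 6513 CPM after siCHKA and 6279 to 7897 CPM after siNT. Of 12 stromal markers, 2 reached 1 CPM and DES was at 0. Stromal cells are a known source of IGF1 in the prostate, whereas these samples come from a line of cancer cells. The summed stromal level was 26.8 to 34.8 CPM after siCHKA and 16.3 to 23.7 CPM after siNT, mostly COL1A1, without which it was 2.96 to 4.72 and 4.90 to 6.06 CPM. Most of that remainder in siNT was PDGFRB, a receptor of platelet-derived growth factor, at 0.686 to 1.77 CPM after siCHKA and 3.24 to 4.47 CPM after siNT without overlap. The smooth muscle gene ACTA2 was at 0.532 to 1.13 and 0.196 to 0.779 CPM. Of 6 immune and endothelial markers in the files, 2 reached 1 CPM and CD3E was at 0, with summed levels of 5.49 to 8.07 and 4.87 to 7.53 CPM. The part of other cells in the IGF1 values was not tested.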

How the data were processed

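Libraries of mRNA were made from total RNA of C4-2 cells and sequenced for 6 siCHKA and 6 siNT samples, grouped by the sample labels, which speak of flow-sorted cells. The authors aligned single-end reads to GRCh37 with TopHat2 2.0.4, counted them on Ensembl genes with HTSeq 0.5.3p9 and compared groups with DESeq 1.10.1, and the deposited values are raw counts per gene without normalization, in 4 files per sample. The strand setting of the counting is not given in the sources used here. Reads outside the gene rows (no feature, ambiguous or not unique) were 33.9% to 39.0% of those listed per sample and were left out. Those with no feature were 4.82% to 5.97% in siCHKA and 3.96% to 4.90% in siNT samples. The TMM factors were 1.02 to 1.07 in siCHKA and 0.922 to 0.965 in siNT samples, without overlap. With library-size scaling alone, the median log2 fold change of all tested genes was 0.19 rather than 0.035. IGF1R was then at 0.69 rather than 0.54, and IGFBP2 at -0.39 rather than -0.54. Which scaling is nearer the true levels was not tested. Reads with more than 1 alignment were not counted, which makes families of near-identical genes uncertain.

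The 4 files were summed. Identifiers were matched to symbols through GENCODE release 44 (82.8% matched), and its coordinates are on GRCh38, so none was joined to the files by position. Genes passing filterByExpr were fitted with edgeR 4.0.16 (R 4.3.3, limma 3.58.1) using TMM and a quasi-likelihood test between the groups, with Benjamini-Hochberg adjustment over all tested genes and a threshold of 0.05. CPM are TMM-normalized, single genes were also compared by an exact permutation test of log2 CPM with a pseudocount of 0.25, and levels per kilobase divide CPM by the union of exons. The floor of 3 counts and the 95% intervals cover these samples, the floor for counting error only, and reads without molecular identifiers are not independent molecules. On simulated counts of 14047 genes with 200 changed 2-fold in a comparison of 6 with 6, edgeR recovered 100% with 2 false calls and DESeq2 1.42.0 recovered 100% with 14 false calls. The simulation gave every gene the same dispersion, changed only well-counted genes and held no sets of unlike samples. It checks that the fits run correctly and does not give their error rates on these data.

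The members and lists were chosen with earlier results of these data known. Besides the 10 members and CHKA, each list names at most the 3 called genes with the largest fall and the 3 with the largest rise, with a mean of at least 1 CPM, and the 5 genes most like IGF1. IGF2BP2, CDKN1B, BCL2L11 and genes at or near 0 were named outside this rule after their values were seen. TXNIP and PECAM1 had no matching identifier. Some genes that the naming rule selects are not reported here. The alternatives were RLE or library-size scaling, DESeq2, a fit with no filter or with 10 counts required throughout, a replicate block, each replicate left out, either set of siCHKA samples left out, 1 count file per sample, a 2-fold minimum and the longest transcript as length. Summing each siCHKA set to 1 sample was added after the data were seen. Python 3.11.15 with pandas 2.3.3 and scipy 1.17.1 was used for the remaining steps.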

Additional observations from a re-analysis of the deposited data

Results flagged for a closer look

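In 24 groups of 6 samples examined, 3 single samples lay far from the rest by Dixon's test, which chance flags in about 1 of 20 groups. IGFBP2 was at 83.6 CPM in siCHKA replicate 5, against 70.4 to 73.4 CPM in the other siCHKA samples. The same gene was at 128 CPM in siNT replicate 4, against 99.98 to 107 CPM in the other siNT samples. IGF2 was at 0.647 CPM in siNT replicate 5, against 1.06 to 1.27 CPM in the others. With each of these samples left out in turn, IGFBP2 stayed lower and IGF2 stayed higher at an adjusted p below 0.05 (edgeR).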

How the results depend on the processing

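Over 22 alternatives the log2 fold change ranged from -3.74 to -3.56 for IGF1 and from 2.12 to 2.52 for IGF2. It ranged from 0.35 to 0.71 for IGF1R, 0.33 to 0.71 for INSR, -0.58 to -0.39 for IGFBP2 and -1.16 to -0.80 for IGFBP3. Each of these 4 and IGF2 kept its call in all 22, which do not include the 2-fold minimum. Library-size scaling moved the median of all tested genes from 0.035 to 0.19 and the calls from 4371 lower and 4650 higher to 2995 lower and 6666 higher, so that 69.0% rather than 51.6% of calls were higher. Under it IGF1 was at -3.56, IRS1 turned from -0.13 to 0.018 (adjusted p = 0.844, edgeR) and IRS2 passed the test at 0.46 (adjusted p = 0.00597). IRS2 also passed with at least 10 counts in every sample at 0.33 (adjusted p = 0.034) and with siCHKA replicates 2, 4 and 6 left out at 0.39 (adjusted p = 0.0358). Leaving out single replicates gave 0.20 to 0.39 for IRS2, with a call without siCHKA replicate 2, siCHKA replicate 4 or siNT replicate 5. With siCHKA replicates 1, 3 and 5 left out, IGF2R was at 0.18 (adjusted p = 0.108) and IRS1 was called lower at -0.25 (adjusted p = 0.0187). The cause of these changes was not tested. With a minimum of 2-fold, 1 member was lower, which is IGF1 and thus the gene that chose the set, and 0 were higher, and 654 genes were lower and 785 higher in all. With each siCHKA set summed to 1 sample, 3744 genes were lower and 3733 higher.

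Same-numbered samples of the groups did not deviate together (correlations of their deviations from -0.396 to 0.321), so the numbers were not taken to pair them. With the replicate block IRS2 was at 0.32 (adjusted p = 0.0447), no other member changed its call, and 4273 genes were lower and 4494 higher. The longest transcript in place of the union of exons gave 5.00 for IGF1, 22.0 for IGF2R, 3.45 for INSR and 4.05 for IGFBP3 in CPM per kilobase in siNT, which placed IGFBP3 above INSR. IGF1 kept rank 3 by its mean, but its range (4.57 to 5.42) then overlapped that of IGFBP3 (3.255 to 4.86). The ranges of IGFBP2 and IGF2R also overlapped by this length. At 34 to 62 reads per siCHKA sample the remaining IGF1 level is coarse, and IGFBP4 and IGFBP5 are near the limit that a count of 0 allows.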
